A study of Mus musculus with 4 samples.

Results

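Titin (gene symbol Ttn) held more start sites than any other gene in a table of 42207 alternative start sites (ASSs) from mouse gastrocnemius muscle. All 556 ASSs that carry the symbol Ttn were taken. They are 1.32% of the sites of the table and hold 2.09% of its reads, and the gene with the next highest number had 213 sites, against a median of 2 sites over 9838 genes. An ASS is a cluster of mapped read ends that marks where a transcript, or a piece of one, begins. Reads came from whole transcriptome start site sequencing (WTSS-seq), in which RNA depleted of ribosomal RNA is copied from a semi-random primer with a template switch at the 5′ end.

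The KO group held 2 libraries of AMPKα2−/− mice on the C57BL/6 background, and the WT group held 2 libraries of their wild-type controls. In the KO allele, DNA that codes for part of the catalytic domain of AMPKα2 is deleted. AMPKα2 is the product of Prkaa2 and the subunit that carries the kinase activity of AMPK, an enzyme that responds to low energy in the cell. All mice were male, the KO mice were about 8 weeks old, and the whole muscle was taken, so every fibre type and every other cell of the muscle contributed RNA. The question put to these data is whether the sites along Ttn, their reads and their use differ between KO and WT muscle.

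Titin is a giant elastic protein that runs from the Z-disc, where neighbouring sarcomeres join, to the M-band in the middle of the sarcomere. Its I-band part works as a molecular spring, its A-band part lies along the myosin filament, and splicing of the exons for the I-band part sets how long and how stiff the spring is. The 5′ end of the messenger RNA codes for the Z-disc end of the protein and the 3′ end for the M-band end.

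Ttn lies on the minus strand of chromosome 2 at chr2:76703980-76982557 (GRCm38), a span of 278578 bp. The 250 bases that precede the annotated start are shown because a start site at the promoter would lie at their downstream edge. They are credited to the RefSeq promoter table (GRCm38.p6, chr2:76982548-76982797, minus strand, 5′ to 3′), and capitals mark the motif matches.

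Ttn upstream of the start: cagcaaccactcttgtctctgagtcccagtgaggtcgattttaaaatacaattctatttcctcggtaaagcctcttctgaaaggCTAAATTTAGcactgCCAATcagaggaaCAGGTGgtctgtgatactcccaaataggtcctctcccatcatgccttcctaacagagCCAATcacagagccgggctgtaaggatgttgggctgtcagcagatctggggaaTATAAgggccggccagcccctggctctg

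The capitals are, in order, a match to the MEF2 motif beginning at -166, CCAAT at -151, the E-box CANNTG at -138, CCAAT at -81 and TATAA at -28, all counted from the annotated start. Both strands were searched, and no matches overlap each other. A match to the MEF2 motif, the binding motif of a muscle transcription factor family, was found in 2.92% of 32851 promoters of the same length, TATAA in 22.8%, CCAAT in 33.8% and CANNTG, the letters bound by MyoD and related factors, in 66.2%. No Ttn site overlapped these 250 bases.

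Reads were almost absent from the annotated start itself. Of the 556 sites, 3 lay within 1000 bp of it and together they held 122 reads, or 0.0723% of all Ttn reads. The site nearest to the start, chr2:76982452-76982463, lies in an exon and had 6 and 2 reads in WT replicates 1 and 2 and 13 and 27 reads in KO replicates 1 and 2. The intronic site chr2:76981827-76981850 had 1 and 2 reads in WT and 50 and 9 in KO, so that its mean normalized count in KO was at least 5.38-fold higher than the floor of 3 counts per library in WT. Its difference did not pass the threshold (DESeq2 adjusted p = 0.449). The third, chr2:76981754-76981797, also intronic, had 7 and 2 reads in WT and 1 and 2 in KO and was too low to test.

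A low share of reads near the annotated start was common in this table. Among 457 genes with at least 1000 reads whose starts are in the promoter table, the median share of reads within 1000 bp of a start on the same strand was 0%, and 335 of them (73.3%) were under 1%. In 33 genes (7.22%) the share was over 50%.

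Sites were spread along the whole gene and grew denser towards its 3′ end. When the gene was cut into 10 equal segments of 27.9 kb, numbered from start to end, segment 1 held 30 sites, segment 6 held the fewest with 19, segment 9 the most with 98, and segment 10 held 93. Site density ran from 6.82 to 35.2 sites per 10 kb. The median gap between neighbouring sites was 151 bp, and 4 gaps were longer than 5000 bp. The longest, 7194 bp, lay 20.2 to 27.4 kb from the start, and the next, 6687 bp, lay 161 to 167 kb from it.

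Reads followed the same slope, with a block of high sites in the middle. The last 3 segments, on the side that codes for the A-band and M-band parts, held 60.8% of Ttn reads, and the first 4 segments held 0.995%, 3.99%, 3.59% and 2.195%. Segment 5 stood out with 16.8% of the reads on 36 sites. The site by which reads counted from the annotated start had reached 50% lay 207 and 212 kb from the start in WT and 205 and 201 kb in KO.

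**Figure D1:**
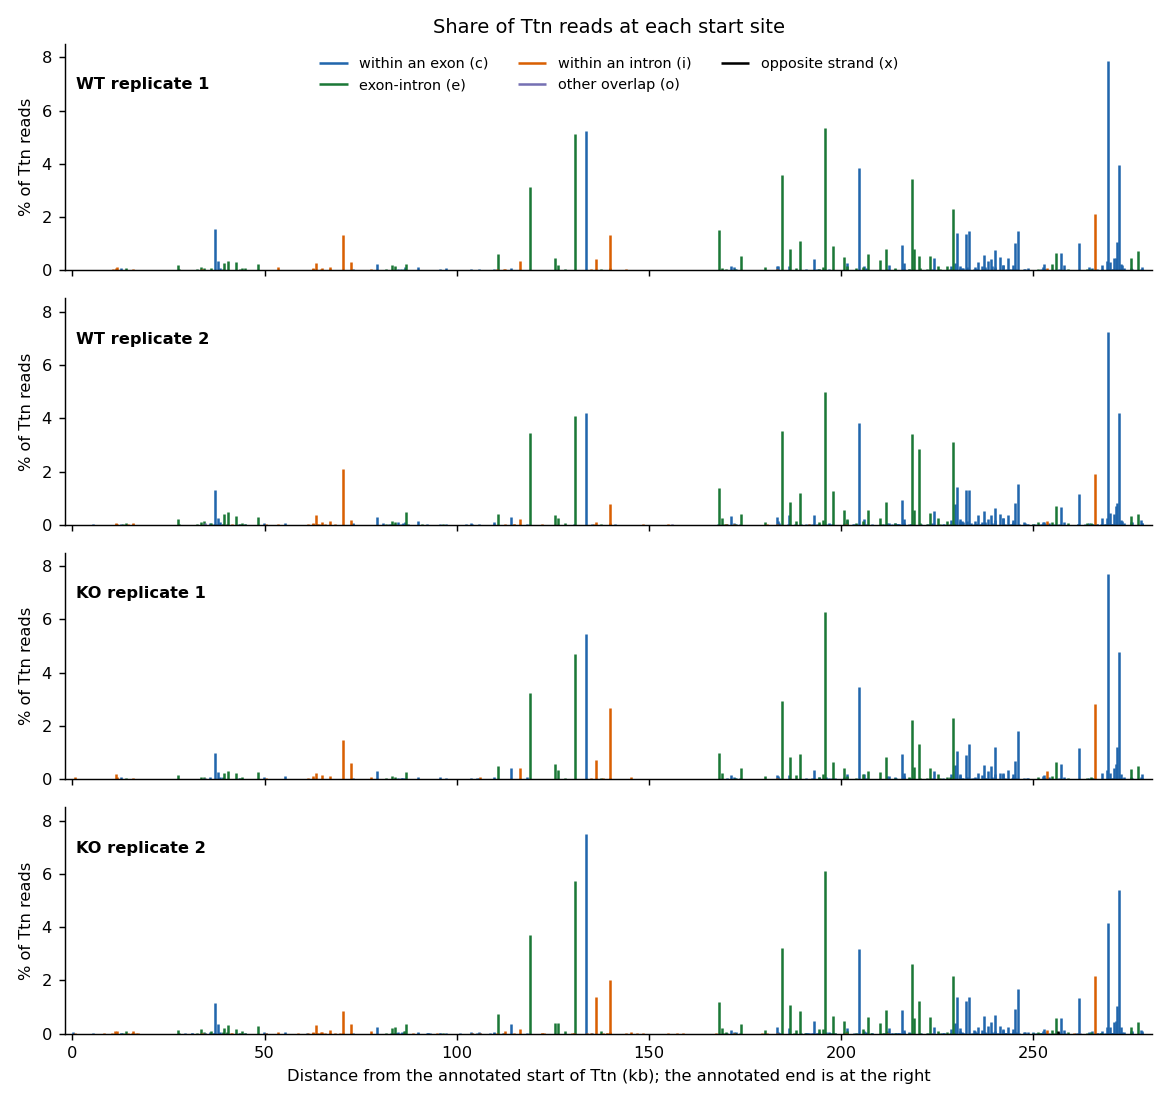
Percent of Ttn reads (vertical axis) at each of the 556 sites against its distance from the annotated start in kb (horizontal axis), 1 panel per library, with 1 line per site coloured by class code. The same tall lines stand in all 4 libraries, at 119 to 134 kb and beyond 180 kb, and the first 100 kb carry few reads.

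The class code says how a site lies to the annotated exons. There were 335 sites within an exon (code c), 90 that run from an exon into an intron (e), 118 inside an intron (i), 9 with another exonic overlap (o) and 4 over an exon on the opposite strand (x). Exon-intron sites made up 16.2% of Ttn sites against 3.20% of all sites with a gene, and intronic sites made up 21.2% against 52.0%. Exonic sites held 49.99% of Ttn reads, exon-intron sites 39.9% and intronic sites 9.94%. The median exon-intron site had 139 reads over the 4 libraries, the median exonic site 33 and the median intronic site 21.

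Intronic sites sat mostly in segments 1, 3, 5 and 6, where they were 63.3%, 63.8%, 61.1% and 84.2% of the sites. In segment 9, 1 of 98 sites was intronic. The 5 intronic sites with most reads held 69.1% of all intronic Ttn reads.

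Ttn sites were wide. Their median width, from first to last base of the cluster, was 47.5 bp against 13 bp over all sites of the table, with 10% of Ttn sites at or under 9 bp and 10% over 204 bp. The median was 110 bp for exon-intron sites, 51 bp for exonic sites and 23 bp for intronic sites. The 58 sites wider than 200 bp held 68.1% of Ttn reads. Width and reads rose together across sites (Spearman's rho 0.74 over 556 sites of the same 4 libraries). Together the sites covered 46708 bp, 16.8% of the gene, and 327 of them had under 50 reads.

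The 3 widest sites were all exonic and near the 3′ end. The widest, chr2:76749779-76750526, measured 748 bp and had normalized counts of 451 and 514 in WT and 384 and 481 in KO. The next, chr2:76712796-76713429, measured 634 bp and was also the site with most reads. The third, chr2:76752005-76752565, measured 561 bp and had 474 and 553 in WT and 446 and 545 in KO. None of the 3 passed the threshold, and at each of them the groups overlapped.

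On the strand opposite to Ttn lay 10 sites with 229 reads in all, 0.136% of Ttn reads, of which 6 were coded as intronic. The highest of them, chr2:76726257-76726260, had 5 and 0 reads in WT and 14 and 54 in KO (DESeq2 adjusted p = 0.529). The other two with most reads, chr2:76827718-76827720 and chr2:76894029-76894031, had 7 and 7 and 0 and 4 reads in WT, and 10 and 11 and 10 and 9 in KO, which was too low to test.

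Nearly all sites were assigned to the same transcript model. It took 551 sites, and 3 other models took 2, 2 and 1. That last site, chr2:76848900-76849102, was the third in reads of the whole gene and held 5.72% of them.

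The libraries differed in depth, and the KO libraries were the deeper ones. WT replicates 1 and 2 held 1300069 and 1568945 reads, and KO replicates 1 and 2 held 2900279 and 2303294. Ttn took 24546 and 34061 reads in WT and 64557 and 45595 in KO, which is 1.89% and 2.17% of the library in WT and 2.23% and 1.98% in KO. Of 28 tested marker genes of fast and slow fibres, fat, fibroblasts, endothelium, red blood cells and leukocytes, DESeq2 and edgeR called 0, and 2 had an unadjusted DESeq2 p under 0.05. Summed over a list, normalized counts of leukocyte genes were 280 and 151 in WT and 81.9 and 94.4 in KO. Those of fibroblast genes were 3169 and 3091 in WT and 2592 and 2131 in KO. Both KO libraries were below both WT libraries in these lists and above them in the red blood cell list. The fast fibre, slow fibre, fat and endothelium lists overlapped, and the median log2 fold change of tested slow fibre genes was 1.075. Cell make-up was not tested beyond these single genes. Fast fibre genes were all detected (9 of 9), while 4 of 5 heart markers, Nppa, Nppb, Tnni3 and Myl7, had no site. No heart or Schwann cell marker had enough reads to be tested, and the summed normalized counts of a library were 4.21 to 18.7 for the heart list and 1.22 to 20.1 for the Schwann cell list. Reads of Prkaa2, the targeted gene, summed to normalized counts of 153 and 186 in WT and 149 and 183 in KO. Which of its sites lie in the deleted part is not given in the sources used here, so this sum does not check the labels. At 3 counts, the floor is 0.00465% to 0.0122% of the Ttn reads of a library, and it covers counting error only, since PCR copies were not marked.

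The summed level of Ttn did not differ between KO and WT beyond the spread of the libraries. Normalized counts of the gene, with size factors fitted on genes, were 34420 and 42422 in WT and 39433 and 39843 in KO. On that scale both KO libraries lay between the WT libraries. As a share of the library, KO replicate 1, at 2.23%, was above both WT libraries, and KO replicate 2, at 1.98%, lay between them. The means were 38421 ± 5658 (SD, n = 2) in WT and 39638 ± 290 (SD, n = 2) in KO. The log2 fold change of KO over WT was 0.04 (SE 0.38, adjusted p = 0.992 with DESeq2, 0.990 with edgeR), with a 95% interval of -0.71 to 0.80. Leaving out WT replicate 1 turned it to -0.10. In bulk muscle, fewer cells of a type and less RNA per cell cannot be told apart. Of all 4688 genes tested, 2.67% passed the adjusted p of 0.1.

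The 10 sites with most reads held 43.8% and 42.1% of Ttn reads in WT and 43.1% and 43.8% in KO, and 3 of them lay in segment 5, 3 in segment 8 and 2 in segment 10. The first in order of reads was the exonic site chr2:76712796-76713429, 269 kb from the start, on the side that codes for the M-band part. Its normalized counts were 2616 and 2851 in WT and 3269 and 1635 in KO. The KO replicates stood on either side of both WT libraries, and the log2 fold change, -0.16 with all libraries, was -0.71 without KO replicate 1 and 0.24 without KO replicate 2.

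The second, the exon-intron site chr2:76786677-76786962, had 1786 and 1965 in WT and 2660 and 2407 in KO. Both KO libraries were above both WT libraries, by 0.43 on the log2 scale (SE 0.53, adjusted p = 1.000 with DESeq2), which did not pass the test. The third, chr2:76848900-76849102, had 1749 and 1654 in WT and 2309 and 2944 in KO, again without overlap and without passing (0.63 on the log2 scale, SE 0.54, adjusted p = 0.970 with DESeq2). Its nearest neighbour among the 10, chr2:76851596-76851809, had 1710 and 1615 in WT and 1991 and 2254 in KO.

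Of the other 6, the exonic site chr2:76710181-76710639, 272 kb from the start, had 1315 and 1646 in WT and 2020 and 2129 in KO. The exon-intron site chr2:76763919-76764194 was the only one of the 10 with both KO libraries below both WT libraries, at 938 and 1034 against 1140 and 1335. The remaining 4 were chr2:76777916-76778181, chr2:76863343-76863698, chr2:76797898-76798277 and chr2:76753434-76753604, with normalized counts of 763 to 1510, and their groups overlapped in 3 of 4 cases. None of the 10 passed the threshold with DESeq2 or edgeR.

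**Figure D2:**
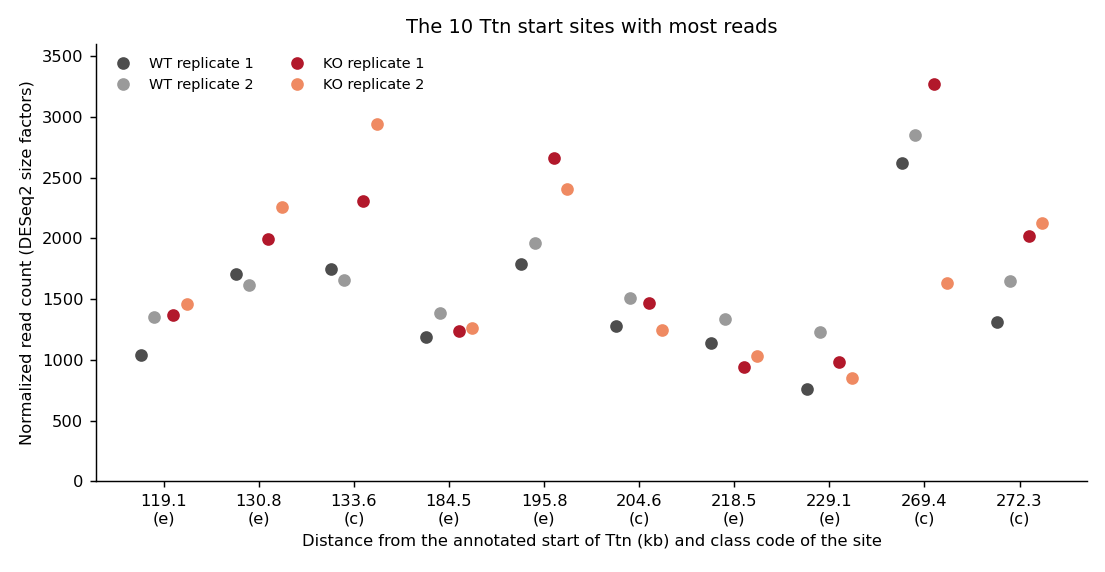
Normalized read count (vertical axis) of the 10 Ttn sites with most reads in each library, ordered by distance from the annotated start in kb with the class code in brackets (horizontal axis), 1 point per library. At 269 kb the KO replicates, 3269 and 1635, lie on either side of the WT points, and at 133.6 kb and 195.8 kb both KO points lie above both WT points.

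Over the whole gene, 261 sites passed the filter of DESeq2 on low counts and were tested, and these held 96.6% of Ttn reads. The level of 1 of them (0.383%) was called higher in KO and of 0 lower. Of all 11112 sites tested in the table, 2.33% were called higher in KO and 0.882% lower, so the share in Ttn was below the background. At an unadjusted p under 0.05, DESeq2 had 5 of the 261 Ttn sites higher in KO and 0 lower. The share of all tested sites at this unadjusted threshold is not given, so these counts cannot be set against a background. The quasi-likelihood test of edgeR called 0 of 266 Ttn sites at an adjusted p under 0.1, against 0.712% of all 11242 sites it tested. Of the 266, 4 had an unadjusted edgeR p under 0.05, again without a share over all sites to set beside it.

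Fold changes of Ttn sites spanned a narrower range than those of the table, whose sites were not matched to Ttn sites in reads. The median log2 fold change of the 261 sites was 0.14 against 0.10 over all tested sites, and the central 80% ran from -0.58 to 1.09 in Ttn and from -1.22 to 2.03 over all sites. The median SE of a Ttn site was 0.99, which bounds what was detectable at these depths. Both KO libraries were above both WT libraries at 65 sites (24.9%) and below both at 35 (13.4%). Over all tested sites these shares were 23% and 17.4%.

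The called site was intronic. It lies at chr2:76846386-76846431, 136 kb from the start, and is 46 bp wide. It had 109 and 43 reads in WT replicates 1 and 2 and 471 and 625 in KO replicates 1 and 2, or normalized counts of 148 and 49.7 in WT and 309 and 539 in KO. Every KO value was above every WT value, and the replicates of each group were themselves far apart. On the log2 scale the rise was 2.11 (SE 0.70, adjusted p = 0.0920 with DESeq2), while edgeR gave an adjusted p of 0.273. The call was lost when KO replicate 1, KO replicate 2 or WT replicate 2 was left out, with log2 fold changes of 1.47 to 2.48, and it passed without WT replicate 1, at 3.10 (DESeq2 adjusted p = 0.0114). In any fit without 1 library its group has a lone library, which is assumed to vary like the pair of the other group, so a pass there adds no replicate of its own. A fit with the replicate number as a block gave 2.24 (DESeq2 adjusted p = 0.107).

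**Figure D3:**
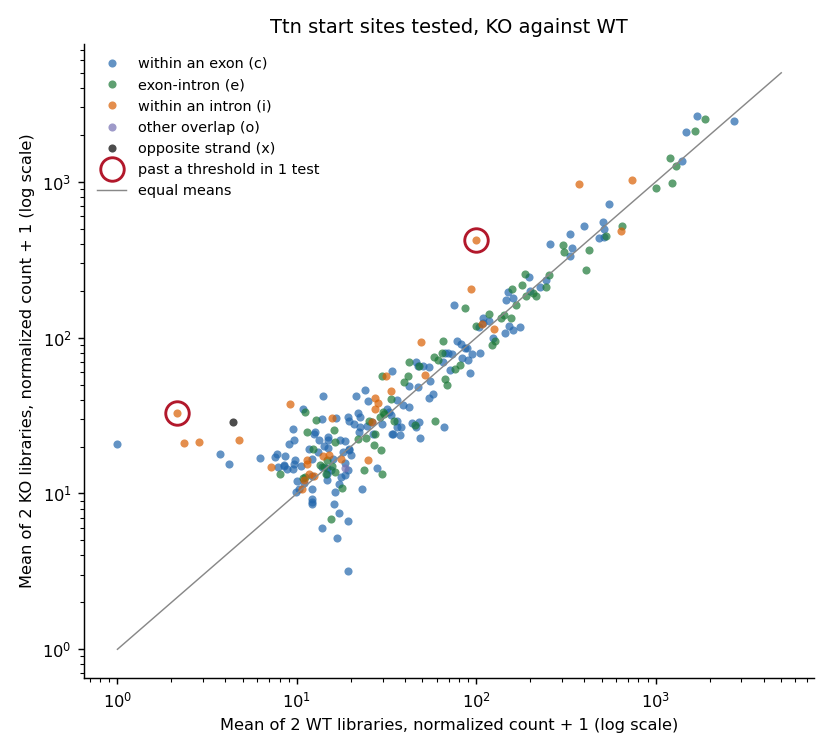
Mean normalized count plus 1 in the KO libraries (vertical axis, log scale) against the WT libraries (horizontal axis, log scale) for the 261 Ttn sites tested, 1 point per site coloured by class code, with a line for equal means. Rings mark the intronic site past the threshold in level, at means of 98.8 in WT and 424 in KO, and the intronic site past it in use, at 1.16 and 31.6.

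Use of sites within Ttn was tested as the change of each site against the rest of the gene. With diffSpliceDGE of edgeR, 264 Ttn sites entered, and the gene as a whole did not pass (Simes adjusted p = 0.476, F test adjusted p = 0.925, both edgeR), where 1.35% of 2145 genes did. Among single sites 1 of 264 passed, against 0.759% of the 7910 sites tested. It was the intronic site chr2:76837303-76837311, 145 kb from the start and 9 bp wide, with 0 and 2 reads in WT and 57 and 30 in KO. It passed the filters on low counts only through the KO libraries, so the call is given as a description of a site that had to differ to be tested. Its mean in KO was at least 8.399-fold higher than the floor of 3 counts per library in WT. Its change in use was 4.41 on the log2 scale (edgeR adjusted p = 0.0375), and its change in level did not pass (DESeq2 adjusted p = 0.107, edgeR adjusted p = 0.154). The call in use was lost with any 1 library left out.

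Reads at intronic sites took a larger part of Ttn in KO than in WT. Their share was 8.48% and 7.55% in WT and 11.8% and 9.89% in KO, or 8.02% ± 0.658 and 10.8% ± 1.33 (SD, n = 2 each). The groups did not overlap, and the difference of 2.82 percentage points was larger than either SD, but with 2 libraries against 2 an exact two-sided permutation test cannot go below p = 0.33, so no test was made. In 31.1% of 582 other genes with enough reads both KO libraries were above both WT libraries in the same way. Over all other genes together, without mitochondrial and ribosomal RNA, the share was 37.6% and 29.6% in WT and 40.9% and 32.4% in KO. There the groups overlapped and replicate 1 was the higher of each group.

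Much of the difference lay in 38 intronic sites of segments 5 and 6, the segments whose share of all Ttn reads was higher in both KO libraries. They held 2.65% and 1.48% of Ttn reads in WT and 4.54% and 4.18% in KO, a difference of 2.30 points. Most of these reads and of this difference came from the called site and the intronic site chr2:76842713-76842750, which was picked out after its values were seen. The called site held 0.444% and 0.126% of Ttn reads in WT and 0.730% and 1.37% in KO. The site chr2:76842713-76842750 held 1.33% and 0.772% in WT and 2.69% and 2.02% in KO. Its normalized counts were 444 and 304 in WT and 1141 and 793 in KO. This rise of the means by 1.37 on the log2 scale (SE 0.58) did not pass (adjusted p = 0.281 with DESeq2). Without the 5 intronic sites with most reads, the difference in intronic share was 0.716 points.

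Of 32 intronic sites tested in level, 27 had a positive log2 fold change, with a median of 0.47, against 0.42 for tested intronic sites of other genes. Of 153 exonic sites 88 were positive, with a median of 0.12, against -0.14 for tested exonic sites of other genes. Of 74 exon-intron sites 38 were positive, with a median of 0.05. The exonic share of reads was 50.7% and 49.9% in WT and 50.4% and 49.0% in KO. The exon-intron share was 40.6% and 42.4% in WT and 37.6% and 40.9% in KO, and the groups overlapped in both.

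**Figure D4:**
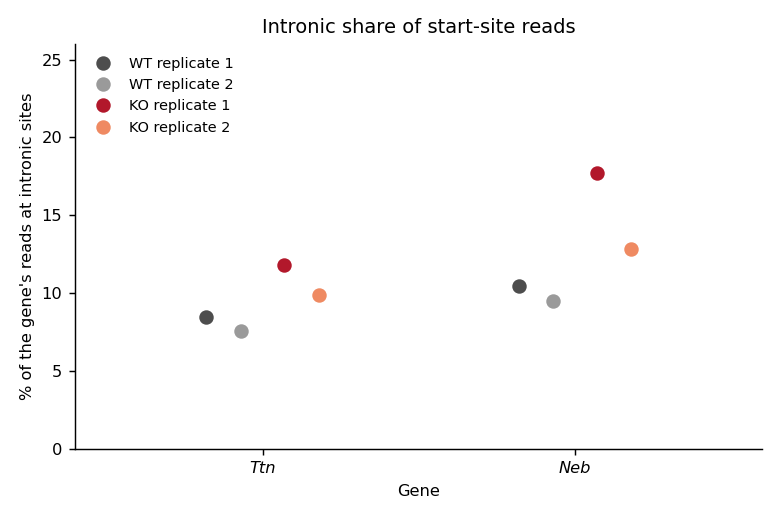
Percent of a gene's start-site reads that fall at intronic sites (vertical axis) in Ttn and Neb (horizontal axis), 1 point per library. In both genes the KO points lie above the WT points, with a range over the 4 libraries of 7.55% to 11.8% in Ttn and 9.50% to 17.7% in Neb.

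Along the gene, the share of segment 5 was 15.6% and 13.5% in WT and 16.5% and 20.3% in KO, a difference of 3.90 points that was 2.02 without KO replicate 2. That of segment 6 was 1.56% and 0.934% in WT and 3.06% and 2.29% in KO. Segments 2, 7, 8 and 9 were lower in both KO libraries than in both WT libraries, by 0.615 to 1.67 points. Segments 1, 3, 4 and 10 overlapped between the groups, and the last was 23.8% and 22.6% in WT and 24.6% and 20.7% in KO. Shares of 1 gene add up to a whole, so a higher share in the middle lowers the others, and none of these differences was tested.

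**Figure D5:**
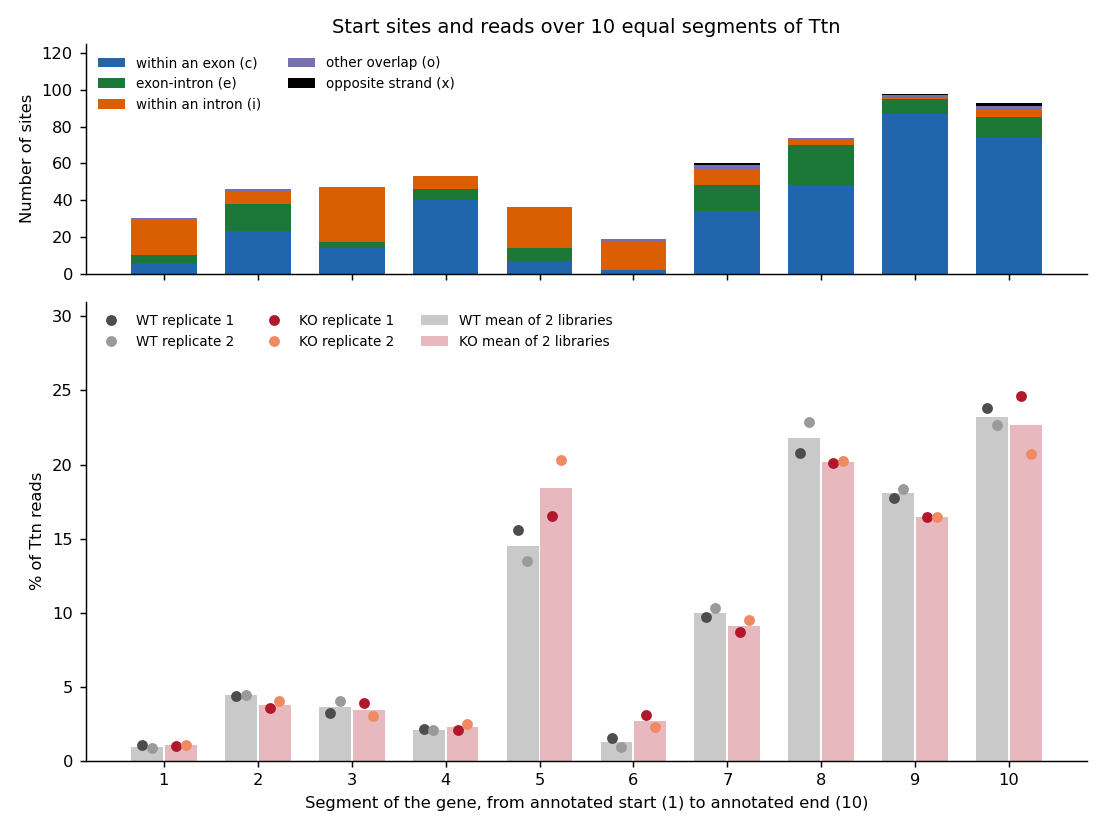
Top, the number of Ttn sites (vertical axis) by class code in each of 10 segments of the gene from annotated start to end (horizontal axis). Bottom, the percent of Ttn reads in each segment, with a point per library and a bar for the mean of the 2 libraries of a group; segments 5 and 6 are higher in both KO libraries than in both WT libraries.

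Site profiles differed between replicates of a group as well as between groups. On each of 3 measures, 1 replicate pair was more alike than every pair of KO and WT, and the other lay within the range of those pairs. Between libraries, the smaller of both shares summed over sites gave an overlap of 87.7% for the WT pair, 86.3% for the KO pair and 82.2% to 86.7% for pairs of KO and WT. Over the 61 sites with at least 500 reads, the SD of the log2 ratio of shares was 0.59 in the WT pair, 0.43 in the KO pair and 0.54 to 0.68 across groups. Divided by its degrees of freedom, the chi-square of the Ttn counts was 4.62 between the WT replicates and 7.25 between the KO replicates. Pairs of KO and WT had 4.98 to 8.22. All are well over the value of 1 that sampling noise alone would give, and none was adjusted for the depth of the pair.

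Detection of weak Ttn sites moved with depth. Reads were seen in all 4 libraries at 391 sites (70.3%). Sites without a read numbered 95 and 78 in WT and 25 and 32 in KO, in the reverse order of the library totals. At 33 sites both WT libraries had 0 reads, and at 2 sites both KO libraries did. The part of depth in these counts was not tested.

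Nebulin (Neb), which runs along the thin filament, is another giant gene of the sarcomere and was set beside Ttn. Ttn had 19.96 sites per 10 kb and Neb 7.07. Scaled to 1000000 reads of a library and per kb of gene span, Ttn had 67.8 and 77.9 reads in WT and 79.9 and 71.1 in KO, against 8.51 to 12.01 in Neb. The slope along the gene ran the other way, as the last 3 segments held 60.8% of reads in Ttn and 15.8% in Neb. Exon-intron sites held 39.9% of reads in Ttn and 65.2% in Neb.

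The intronic share of Neb was 10.5% and 9.50% in WT and 17.7% and 12.9% in KO. In level, 1 of 57 tested Neb sites was called higher and 1 lower in KO, which is near the 2.33% and 0.882% of all sites tested. The summed level of Neb had a KO over WT difference of -0.09 on the log2 scale (SE 0.41, adjusted p = 0.992 with DESeq2), and its sign turned to 0.07 without KO replicate 1 and 0.21 without WT replicate 2.

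Genes whose products bind titin, are linked with 1 of its parts or regulate its splicing were taken as 5 lists of 34 genes. Not every member binds titin itself. Of the 34 genes, 31 had reads and 24 were tested. DESeq2 called 1 higher and 1 lower in KO, where 1.71% of the 4688 genes tested were called higher and 0.96% lower. EdgeR called 0 of them, and 2 had an unadjusted DESeq2 p under 0.05, against 9.77% of all genes tested. These counts are too small to set the partners apart from the background. Their median log2 fold change was 0.07, against 0.01 over all genes tested, and it was -0.08 without KO replicate 2 and -0.17 without WT replicate 1. The genes at the Z-disc end (10 tested), of the N2A part of the I-band (3) and of the A-band (2) had none called, with medians of -0.02, 0.01 and -0.03. None of these 15 had an unadjusted DESeq2 p under 0.05, and edgeR called none of them.

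Telethonin (Tcap), which caps the Z-disc end of titin, had normalized counts of 179 and 480 in WT and 545 and 772 in KO. The groups did not overlap, and the difference of 0.998 on the log2 scale (SE 0.53, adjusted p = 0.550 with DESeq2) did not pass with all 4 libraries. It ran from 0.46 to 1.85 with a library left out, and the one fit past the threshold (DESeq2 adjusted p = 0.0989, without WT replicate 2) left a lone WT library. Capn3, a protease held at the N2A part, was low and overlapping, at 26.6 and 3.74 in WT and 14.7 and 22.7 in KO, and its log2 fold change of 0.30 turned to -0.03 without KO replicate 2 and -0.55 without WT replicate 2.

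Of 6 tested genes at the M-band end, 1 was called. Trim63 (MuRF1), a ubiquitin ligase that binds titin near the M-band, fell by 2.00 on the log2 scale, from 100.96 and 169 in WT to 29.3 and 38.4 in KO (SE 0.62, adjusted p = 0.0620 with DESeq2, 0.166 with edgeR). With any 1 library left out the call was lost, with values from -2.32 to -1.61 and an adjusted p of 0.169 to 0.8503 by DESeq2, and a DESeq2 fit with the replicate block gave an adjusted p of 0.155. Myomesin 1 (Myom1), which crosslinks titin at the M-band, had 237 and 347 in WT and 304 and 310 in KO, a log2 fold change of 0.07 that turned to -0.18 without WT replicate 1.

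Of 3 tested regulators of titin splicing, 1 was called higher. Rbm20, an RNA-binding protein that represses the splicing-in of titin exons, had normalized counts of 22.4 and 56.0 in WT and 503 and 70.8 in KO. The KO replicates were far apart, and the second of them was near WT replicate 2. The means differed by 2.87 on the log2 scale (SE 0.78, adjusted p = 0.0166 with DESeq2, 0.203 with edgeR). It was 0.86 without KO replicate 1 (DESeq2 adjusted p = 0.999) and 2.36 without WT replicate 1 (DESeq2 adjusted p = 0.268). It passed without KO replicate 2 (3.68, DESeq2 adjusted p = 0.000993) and without WT replicate 2 (3.65, DESeq2 adjusted p = 0.0206), and a DESeq2 fit with the replicate block gave an adjusted p of 0.129.

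The genes whose levels over the 4 libraries were most like those of Ttn were Myom2, Qk, Uqcrb, Tnnt3 and Pde4d, among 622 other genes with at least 1000 reads. Likeness was the root mean square difference of log2(normalized count + 1) after each gene was centred on its own mean, and it was 0.0556 for Myom2 and 0.0710 for Pde4d, against a median of 0.388. The centred values of Ttn were -0.18 and 0.12 in WT and 0.02 and 0.03 in KO, so that the likeness rests mostly on the gap between the WT replicates. Myom2 codes for an M-band protein and Tnnt3 for the troponin T of fast fibres. Slow fibre genes, 4 of 6 tested and 0 called by DESeq2 or edgeR with 0 at an unadjusted DESeq2 p under 0.05, summed to normalized counts of 266 and 778 in WT and 720 and 1029 in KO, and their part in the Ttn values was not tested.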

How the data were processed

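Total RNA of gastrocnemius muscle from 2 AMPKα2 KO and 2 WT mice was profiled by WTSS-seq on an Ion PGM sequencer. The authors deposited 1 table of raw read counts per clustered start site, with no pooling. The genome build in the submitters' processing notes was GRCm38.p5. Mapping, clustering of read ends and Cuffcompare class codes are described for 3′-end libraries from the same study, and their settings for 5′ ends are not given in the sources used here. Each row had at least 10 reads over the 4 libraries, a filter that favours sites seen in the deeper KO libraries. Depth was 1300069 to 2900279 reads. Floors (3 counts) cover counting error only. The interval of summed Ttn was taken from the SE of the DESeq2 fit, which also takes in the spread between libraries. Replicates were separate mice by the study's methods, and p-values measure the spread between these libraries.

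All sites were fitted together with DESeq2 (version 1.42.0, R version 4.3.3; size factors by median of ratios, independent filtering, Benjamini-Hochberg adjusted p under 0.1), after the study's methods, and edgeR (version 4.0.16, quasi-likelihood, TMM, filterByExpr) was run beside it. Counts summed over sites of the same symbol gave the levels of genes. Size factors were fitted separately for sites and for genes, so normalized counts of a site and of a gene are on different scales. Use within genes was tested with diffSpliceDGE, whose coefficients were turned from natural log into log2. Shares were computed per library from counts and had no test. Scripts were tested on simulated data. Positions came from the RefSeq gene table (the end at the gene's 5′ side, 10 bp upstream of the start in the promoter table), and 1 promoter was matched for Ttn. Alternatives were other size factors, filters, tools, a threshold of 0.05, a replicate block, and leaving out each library.

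The sites named were the 10 with most reads, those called in level or use, those within 1000 bp of the start, the 3 widest and 3 on the opposite strand. The genes named were called partners, Tcap, Capn3, Myom1, Neb, Rbm20, Prkaa2 and the 5 most like Ttn. A gene of the partner lists is not reported here. The members, lists and tests were chosen with earlier results of these data known.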

Additional observations from a re-analysis of the deposited data

How the results depend on the processing

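The number of Ttn sites called higher in KO was 1, and it was 0 with edgeR, with TMM size factors, with library totals, with no independent filtering, with at least 20 reads, at a threshold of 0.05, with the replicate block and with the edgeR replicate block, which was added after seeing the data. Leaving out a library changed this number. Without WT replicate 1, chr2:76904868-76904881 was added, with a log2 fold change of 7.42. This site had 12 and 0 reads in WT replicates 1 and 2 and 54 and 43 in KO. That fit therefore set its KO reads against a lone WT library with 0 reads, and the value is a description only. The number called lower was 0 in every fit. The log2 fold change of summed Ttn stayed between 0.02 and 0.05 under the other fits and ran from -0.10 to 0.17 with a library left out.

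The adjusted p of use within Ttn stayed over 0.1, from 0.453 to 0.925, and from 0.223 to 1 with a library left out. The number of sites called in use was 1 with at least 50 reads, with library totals and with the replicate block. With a library left out, the site picked out was chr2:76886845-76886848 without KO replicate 2 (8.17 on the log2 scale) and chr2:76971893-76971897 without WT replicate 2 (-7.91). In the first of these fits KO replicate 1 was the lone KO library. Neither site was called in use with all 4 libraries. All 16 reads of chr2:76971893-76971897 were in WT replicate 1, so its value rests on that library. For partner genes, the number called higher was 0 with edgeR, the replicate block and the edgeR replicate block. The number called lower was 0 with edgeR, no independent filtering, the threshold of 0.05 and the replicate block. It was 1 with TMM size factors, library totals, at least 20 reads and the edgeR replicate block.

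The difference of the exonic share, -0.576 points, was 0.304 without the site with most reads and ran from -1.29 to 0.141 with a library left out, above 0 without KO replicate 2. The difference of the intronic share was 0.716 points without its 5 sites with most reads, an alternative chosen after seeing the data, and 1.88 to 3.76 with a library left out. The difference of segment 5, 3.90 points, was 0.459 when each detected site was counted once and 2.02 to 5.79 with a library left out, the lowest without KO replicate 2. The difference of the last segment, -0.571 points, ran from -2.52 to 1.38 with a library left out. The median log2 fold change of partner genes, 0.07, ran from -0.17 to 0.32 with a library left out. Named sites and genes that turned sign with a library left out were all uncalled, and on the log2 scale they ran from -0.71 to 0.24 for chr2:76712796-76713429, -0.15 to 0.055 for chr2:76777916-76778181, -0.14 to 0.025 for chr2:76797898-76798277, -0.43 to 0.21 for chr2:76753434-76753604, -0.35 to 0.031 for chr2:76749779-76750526, -0.22 to 0.12 for chr2:76752005-76752565, -0.44 to 0.14 for chr2:76827718-76827720, -0.55 to 2.32 for Capn3, -0.18 to 0.34 for Myom1 and -0.36 to 0.21 for Neb. The cause was not tested for any of these.

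Replicate numbers were shared between the groups by label only. Deviations of same-numbered libraries correlated at 0.07 over 11112 tested sites and at -0.16 over 261 Ttn sites, so the block result is given without taking the libraries as pairs. With 2 libraries a group, a median SE of 0.99 on the log2 scale per Ttn site limits what could be seen.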
